A study of Mus musculus with 12 samples.

Results

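The transcripts of 10 glycolysis enzymes (Hk1, Hk2, Gpi1, Pfkl, Pfkp, Aldoa, Pgk1, Eno1, Pkm and Ldha) were followed through 4 stages of mouse male germ cell development. The genes were taken by symbol from a table of 55487 Ensembl mouse genes, in which the 10 symbols matched 11 rows. The symbol Aldoa names a pair of rows, of which the abundant one (ENSMUSG00000030695) was used. The other (ENSMUSG00000114515, chr7:126800790-126809108 in GRCm38, minus strand) held means of 19.1, 10.2, 10.5 and 4.604 normalized counts at the 4 stages. The symbols name enzymes of 1 pathway, and the rule uses no measured value. In GRCm38 (GENCODE M21) Hk1 lies at chr10:62268855-62379908 on the minus strand, Hk2 at chr6:82725025-82774454 (minus), Gpi1 at chr7:34201330-34230336 (minus), Pfkl at chr10:77986947-78010083 (minus) and Pfkp at chr13:6579768-6648777 (minus). Aldoa lies at chr7:126795234-126800751 (minus), Pgk1 at chrX:106187100-106203699 (plus), Eno1 at chr4:150236721-150248879 (plus), Pkm at chr9:59656368-59679375 (plus) and Ldha at chr7:46841475-46855627 (plus).

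Glycolysis splits glucose into pyruvate in the cytosol and yields ATP and NADH, and lactate dehydrogenase turns pyruvate into lactate while restoring NAD+. Hexokinases and phosphofructokinases catalyse its early, largely irreversible steps and pyruvate kinase its last one, while the steps between them run near equilibrium. Most steps are served by several isoenzyme genes that differ in tissue distribution and in regulation, and testis germ cells are known for isoenzymes of their own, such as those encoded by Pgk2 and Ldhc.

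RNA was sequenced from germ cells of the testis that the labels call gonocytes, the male germ cells before spermatogonia form. They came from mice carrying an Mvh-Venus transgene, in which a fluorescent protein marks the germ line, and the series addresses what loss of Morc1 does to chromatin and transcripts of these cells. There were 3 libraries at each of E13.5 and E16.5 (embryonic days), P0 (the day of birth) and P3 (postnatal day 3), 12 in all. Titles and source names call all of them wild type (WT), whereas the genotype tag reads Morc1 (+/-) at E13.5 and P0 and Morc1 (-/-) at E16.5 and P3. If the tag holds, stage and genotype cannot be told apart between consecutive stages or between P3 and E13.5, while P0 against E13.5 and P3 against E16.5 each compare samples of 1 tag. Morc1 itself was at 1697, 31378, 7496 and 10880 normalized counts at E13.5, E16.5, P0 and P3, so it was not lower in the stages tagged (-/-) than at E13.5. No label says whether the 3 samples of a stage came from separate animals or pools. The p-values therefore set differences between stages against the spread between these samples, which may be technical. Libraries are named by stage and by the number 1, 3 or 4 of their column.

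Reads assigned to genes numbered 40946616 to 51533747 per library, and the values used below are these numbers after division by the library's size factor, termed normalized counts. All 8 germ cell markers (Ddx4, Dazl and others) were present at every stage, with median summed levels of 265852, 280231, 145793 and 246531 normalized counts at E13.5, E16.5, P0 and P3. Markers of other testis cells were far lower. The 7 Sertoli cell markers summed to a median of 1606, 3630, 19647 and 4603, the 6 Leydig cell markers to 574, 1236, 3169 and 241, and the 6 mast cell markers to 0, 24.8, 2428 and 3.88, all with their peak at P0; Leydig markers reached 7763 in E16.5 library 4 and mast cell markers 322 in P3 library 3. The peritubular markers peaked at P0 too (4035), the macrophage markers at E16.5 (1106, mostly Cd68), and the endothelial list at E13.5 (4564), where most of it was Pecam1, a gene that germ cells also express. Red blood cell markers summed to a median of 187, 1926, 1912 and 327, with E16.5 and P0 libraries overlapping. After E13.5 most of this sum was Alas2 rather than globins. Alas2 was at 1549, 1373 and 1505 in E16.5 libraries 1, 3 and 4 and 1393, 1397 and 1248 in those of P0. Of the defining markers, Insl3 and Lhcgr were at 0 at P3, Adgre1 at P3, Emcn at E13.5, Hbb-y at every stage but P0, and all 6 mast cell markers at E13.5. In bulk samples, fewer cells of a type and less RNA per cell cannot be told apart.

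Several of these genes have processed pseudogenes, copies of the spliced transcript elsewhere in the genome, and reads from the parent gene can match them equally well. How the authors' counting treated reads that match several places is not given in the sources used here. Transcripts were therefore compared in words of 50 bases (GENCODE M21 on GRCm38, either strand). No word of the principal transcripts of Hk1 and Hk2 and 0.0543% of those of Pfkl occurred in another gene's transcripts. The share was 13.9% for Aldoa, 17.1% for Ldha, 25.3% for Gpi1, 34.4% for Pkm, 68.0% for Pgk1 and 72.2% for Eno1. For Pfkp it was 17.1%, all in Pitrm1, a gene that overlaps the end of Pfkp on the opposite strand. Absolute levels of Pgk1 and Eno1 in particular are thus uncertain.

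**Figure D1:**
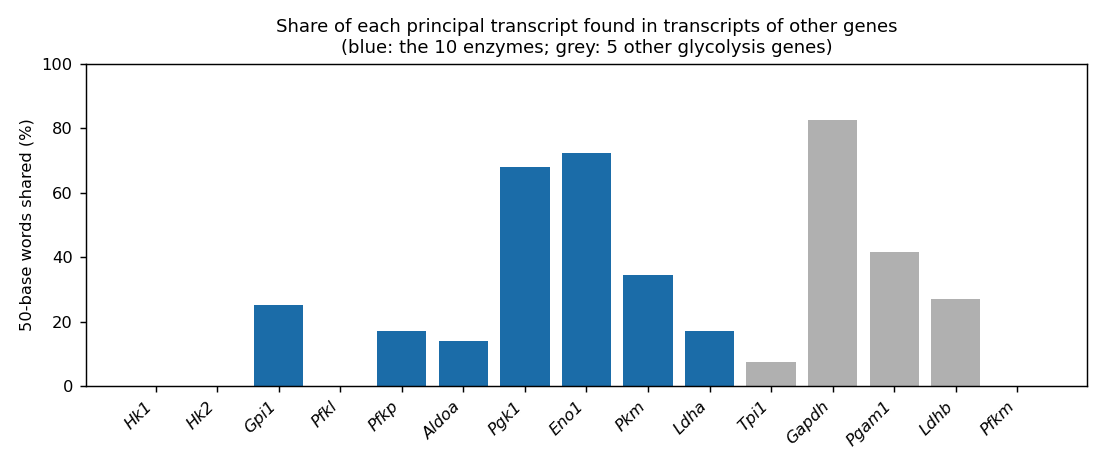
Percentage of the 50-base words of each gene's principal transcript that also occur in annotated transcripts of another gene (y axis), for the 10 enzymes in blue and 5 other glycolysis genes in grey (x axis). Eno1 at 72.2% and Pgk1 at 68.0% stand highest of the 10, Hk1 and Hk2 are at 0, and Gapdh reaches 82.5%.

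Stretches of 60 coding bases show how near the copies are. They compare Pgk1, Eno1, Pkm and Ldha each with a processed pseudogene. Each stretch is the aligned window within 1 exon that holds the most differences, so other such windows differ no more. Capitals mark the bases that differ within a pair, and all are read 5′ to 3′ on the gene's own strand in GRCm38. The pair of Gpi1 and Gm1840, 98.6% identical over 1432 bases, is not printed. Pgk1 exon 1 (chrX:106187252-106187311, plus strand) and Pgk1-rs7 (chr12:10900181-10900240, minus strand) were identical, as they were over all 1255 aligned bases.
Pgk1: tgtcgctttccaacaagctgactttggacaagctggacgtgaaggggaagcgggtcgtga
Pgk1-rs7: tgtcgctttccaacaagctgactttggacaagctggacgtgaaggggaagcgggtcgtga
Eno1 exon 8 (chr4:150246570-150246629, plus strand) and Gm4735 (chr2:80837808-80837867, plus strand) differed at 1 of 60 bases here and were 99.6% identical over 1302 bases.
Eno1: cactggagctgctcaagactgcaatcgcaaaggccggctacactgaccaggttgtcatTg
Gm4735: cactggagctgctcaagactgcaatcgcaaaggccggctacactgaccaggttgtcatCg
Pkm exon 5 (chr9:59668913-59668972, plus strand) and Gm6560 (chr5:22725731-22725790, minus strand) differed at 4 bases and were 98.5% identical over 1591 bases.
Pkm: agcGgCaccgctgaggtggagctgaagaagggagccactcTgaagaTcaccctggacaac
Gm6560: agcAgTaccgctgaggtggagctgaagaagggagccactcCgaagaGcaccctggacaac
Ldha exon 6 (chr7:46851900-46851959, plus strand) and Gm5452 (chr13:83832956-83833015, plus strand) differed at 5 bases and were 96.1% identical over 995 bases.
Ldha: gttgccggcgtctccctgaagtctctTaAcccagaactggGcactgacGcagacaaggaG
Gm5452: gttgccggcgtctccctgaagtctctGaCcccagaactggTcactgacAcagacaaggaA

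The copies themselves held few counts. Rows elsewhere in the genome that share at least 100 words with a member came to at most 1.61% of that member's normalized count at any stage, a value reached by Pkm at E13.5. Most of it lay in Gm6560, at 2893, 1342, 683 and 1047 normalized counts at E13.5, E16.5, P0 and P3. Pgk1-rs7, identical to Pgk1 over its length, stood at 16.2, 1.15, 3.13 and 2.61, and Gm4735 at 0 at every stage. Adding these copies to their parents changed no call of a member in any of the 6 comparisons of stages. Counts that small could hardly change a call, so the addition does not weigh reads lost to shared sequence. Whether reads that match both were dropped before deposit was not tested. For Gapdh, which catalyses the oxidative step of glycolysis and is not among the 10, 89 other genes share at least 100 words and 82.5% of words are shared. It was listed at means of 197, 38.3, 100.01 and 107 normalized counts at the 4 stages, and the part of shared sequence in these values was not tested.

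Levels of different genes are compared here per kilobase (kb) of principal transcript. Pkm and Eno1 led at every stage, and the hexokinases and phosphofructokinases stood low. At E13.5 the order ran from Pkm (74587 ± 2966 normalized counts per kb, SD, n = 3) and Eno1 (62542 ± 2836) through Aldoa (28107 ± 1355), Gpi1 (9304 ± 480), Pgk1 (5273 ± 225), Ldha (2023 ± 122), Pfkl (989 ± 33.3), Pfkp (506 ± 29.0) and Hk1 (384 ± 21.4) to Hk2 (136 ± 18.4). No neighbours in that order overlapped between libraries. Of the other stages, neighbours overlapped for Aldoa with Gpi1 and Pfkp with Hk2 at E16.5, Pfkp with Pgk1 at P0, and Hk1 with Pgk1 at P3. By P3 the order was Eno1 (33278 ± 1096), Pkm (28634 ± 636), Aldoa (23615 ± 489), Gpi1 (12669 ± 110), Ldha (4783 ± 155), Hk1 (711 ± 77.2), Pgk1 (687 ± 43.5), Pfkp (627 ± 4.18), Hk2 (508 ± 19.4) and Pfkl (360 ± 24.2). When counts were divided by the unshared words alone, Eno1 stood above Pkm at all 4 stages, for example at 230494 against 116056 per kb at E13.5, and Pgk1 rose above Gpi1 at E13.5 (16911 against 12663). Together the 10 genes took 0.743%, 0.742%, 0.636% and 0.535% of all reads at E13.5, E16.5, P0 and P3, with SDs of 0.0322, 0.0228, 0.0141 and 0.0120 percentage points. Eno1 and Pkm alone made up 77.3%, 78.9%, 57.0% and 59.99% of the reads of the 10.

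**Figure D2:**
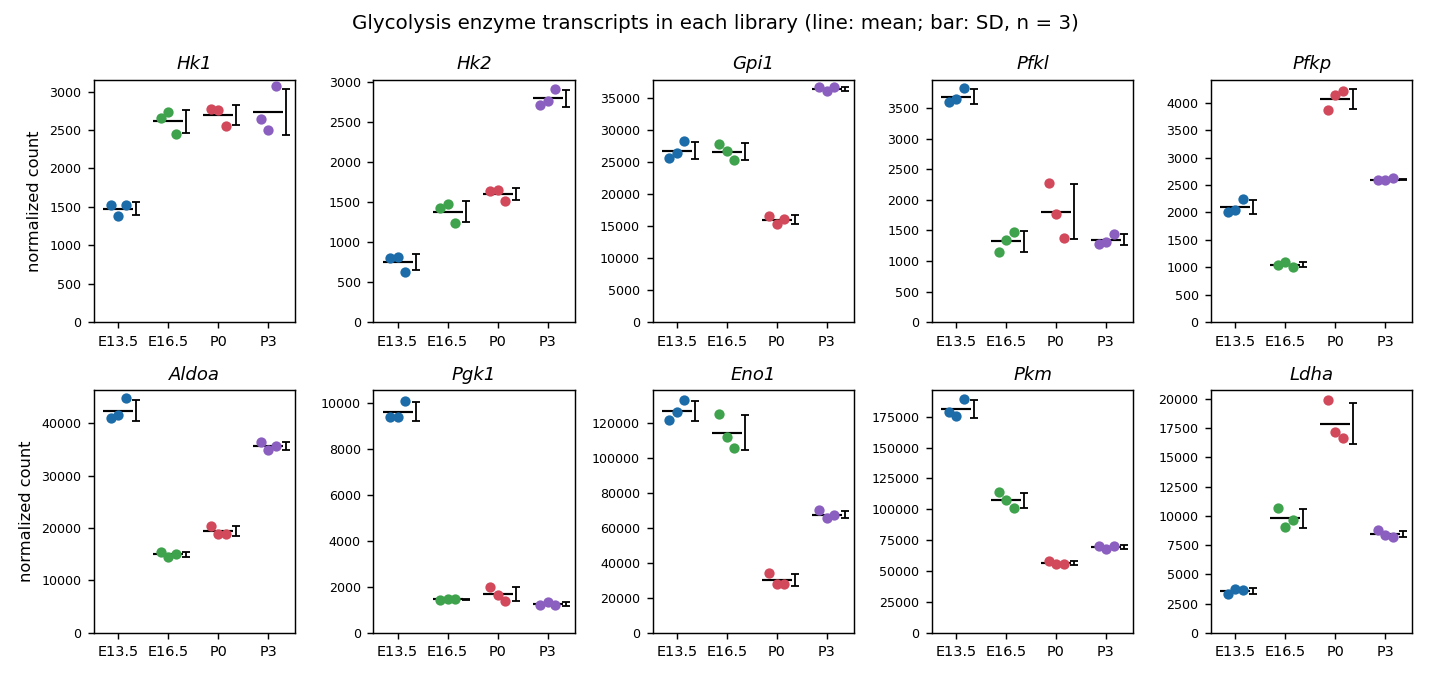
Normalized counts (y axes, linear, from 0) of the 10 enzymes in each of the 12 libraries at 4 stages (x axes); dots are libraries 1, 3 and 4 from left to right, lines are means and bars SDs of 3 libraries. Pgk1 lies between 9367 and 10097 at E13.5 and between 1201 and 2004 at the later stages, whereas Ldha lies between 3328 and 3736 at E13.5 and between 16627 and 19896 at P0.

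The hexokinases, which phosphorylate glucose and trap it in the cell, both rose from E13.5 to E16.5. Hk1, the widely expressed form, was at 1524, 1383 and 1527 normalized counts in E13.5 libraries 1, 3 and 4. It was at 2661, 2733 and 2442 in those of E16.5, 2779, 2756 and 2547 in those of P0, and 2648, 2496 and 3070 in those of P3. All later libraries lay above all of E13.5 and overlapped among themselves. From E13.5 to E16.5 Hk1 rose 1.77-fold (log2 fold change 0.82, SE 0.09, limma adjusted p 1.6e-07). The next steps gave log2 fold changes of 0.05 (adjusted p 0.669) and 0.02 (adjusted p 0.847) in limma. Hk2, a form found at the outer mitochondrial membrane and often raised in proliferating cells, was at 808, 810 and 633 at E13.5, 1429, 1483 and 1235 at E16.5, 1637, 1657 and 1517 at P0, and 2715, 2763 and 2920 at P3. Its stages did not overlap and P3 stood highest. Hk2 rose 3.75-fold from E13.5 to P3 (log2 fold change 1.91, SE 0.10, limma adjusted p 4.62e-11). With equal library totals, however, the step from P0 to P3 was -0.82 for Hk1 (adjusted p 1.54e-07, limma) and -0.04 for Hk2 (adjusted p 0.736) rather than 0.02 and 0.80, so the P3 part of the rise depended on the scaling.

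Gpi1 encodes the isomerase that turns glucose 6-phosphate into fructose 6-phosphate. It was at 25672, 26461 and 28364 at E13.5, 27935, 26758 and 25387 at E16.5, 16597, 15300 and 16190 at P0, and 36719, 36172 and 36720 at P3. E13.5 and E16.5 overlapped, P0 was the lowest stage and P3 the highest in normalized counts. With equal library totals P0 was instead above E13.5 (0.43, limma adjusted p 9.29e-07). From P0 to P3 it rose 2.28-fold (log2 fold change 1.19, SE 0.06, limma adjusted p 4.54e-11), and this rise was also called with equal library totals. The fall from E16.5 to P0 (log2 fold change -0.74, limma adjusted p 4.07e-08) was -0.07 with equal library totals (adjusted p 0.219).

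The phosphofructokinases, which commit fructose 6-phosphate to glycolysis, both fell from E13.5 to E16.5, after which Pfkp rose beyond its E13.5 level. Pfkl, the liver-type subunit, was at 3591, 3644 and 3828 at E13.5, 1143, 1341 and 1478 at E16.5, 2279, 1761 and 1382 at P0, and 1273, 1312 and 1445 at P3. E13.5 stood above every later library, and the 3 later stages overlapped. With equal library totals, Pfkl at P0 against E13.5 was 0.11 (limma adjusted p 0.449) in place of -1.06. Pfkl fell 2.81-fold from E13.5 to E16.5 (log2 fold change -1.49, SE 0.14, limma adjusted p 3.27e-08). The later differences, a log2 fold change of 0.43 from E16.5 to P0 (limma adjusted p 0.0124) and of -0.40 from P0 to P3 (0.0146), rested on P0 library 1: without it they were 0.25 (limma adjusted p 0.0896) and -0.22 (0.112). The former was also lost without E16.5 library 1 (0.33, limma adjusted p 0.0715), and the latter without P3 library 1 (-0.36, 0.052).

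Pfkp, the platelet-type subunit, was at 2015, 2045 and 2237 at E13.5, 1044, 1093 and 1014 at E16.5, 3866, 4148 and 4210 at P0, and 2585, 2598 and 2620 at P3. Stages did not overlap, with E16.5 lowest and P0 highest. Pfkp fell 2.00-fold to E16.5 (log2 fold change -0.997, SE 0.07, limma adjusted p 1.22e-09) and rose 3.88-fold to P0 (1.95, limma adjusted p 1.86e-12). It then fell 1.57-fold to P3 (-0.65, limma adjusted p 3.81e-07). The overlapping Pitrm1 stood at 9590, 2407, 1858 and 3555 normalized counts at the 4 stages; whether the authors' counting used strand is not given in the sources used here. With the Pitrm1 counts added, the value of Pfkp at P0 against E13.5 turned from 0.96 to -0.98, that at P3 against E13.5 from 0.31 to -0.92, and that at P3 against P0 from -0.65 to 0.0533 (limma adjusted p 0.471).

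The aldolase gene Aldoa, whose enzyme cleaves fructose 1,6-bisphosphate, was at 40967, 41641 and 44801 at E13.5, 15406, 14428 and 15138 at E16.5, 20474, 18942 and 18837 at P0, and 36432, 34955 and 35660 at P3. Stages did not overlap, with a low at E16.5 and a level at P3 close to but below that of E13.5. Aldoa fell 2.83-fold from E13.5 to E16.5 (log2 fold change -1.50, SE 0.06, limma adjusted p 1.32e-12), rose 1.29-fold to P0 (0.37, limma adjusted p 8.03e-05) and 1.84-fold to P3 (0.88, limma adjusted p 1.71e-09). With equal library totals the rise to P3 was 0.04 (adjusted p 0.514), that to P0 was larger, and P3 against E13.5 was 0.0784 (limma adjusted p 0.196) in place of -0.25.

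Pgk1, the X-linked phosphoglycerate kinase of the ATP-yielding step after Gapdh, showed the largest fall between consecutive stages of the 10. It was at 9367, 9404 and 10097 at E13.5, 1431, 1483 and 1469 at E16.5, 2004, 1634 and 1404 at P0, and 1213, 1344 and 1201 at P3. Every E13.5 library held over 4 times the count of any later library. Pgk1 was 6.58-fold lower at E16.5 than at E13.5 (log2 fold change -2.72, SE 0.10, limma adjusted p 3.39e-13). At P0 against E16.5 it gave 0.19 (limma adjusted p 0.125) with overlapping libraries, and at P3 against P0 -0.41 (limma adjusted p 0.00166). The fall after E13.5 was called under all 5 scalings. It was also called with the copies added, but these held at most 0.705% of the Pgk1 count at any stage. Adding them therefore could not show what shared sequence did to this fall.

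Eno1, the enolase that makes phosphoenolpyruvate, was at 121624, 125716 and 132975 at E13.5, 124993, 111835 and 105334 at E16.5, 33984, 28134 and 27867 at P0, and 69817, 65408 and 67142 at P3. Both embryonic stages overlapped, P0 lay far below them and P3 between. Eno1 fell 3.81-fold from E16.5 to P0 (log2 fold change -1.93, SE 0.09, limma adjusted p 1.19e-11) and rose 2.26-fold to P3 (1.17, limma adjusted p 1.88e-09), and both changes kept their direction and call under all 5 scalings. The value at E16.5 against E13.5 was -0.16 (limma adjusted p 0.104), turning to 0.35 with equal library totals (adjusted p 5.4e-05).

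Pkm, the pyruvate kinase gene whose spliced forms differ between embryonic and adult tissue, was the most abundant of the 10 in normalized counts at E13.5, P0 and P3. It was at 179009, 175678 and 189500 at E13.5, 113614, 107369 and 101358 at E16.5, 58239, 55963 and 55473 at P0, and 70399, 67858 and 70655 at P3. Stages did not overlap and P0 was lowest. Pkm fell 1.69-fold to E16.5 (log2 fold change -0.76, SE 0.07, limma adjusted p 1.59e-08) and 1.90-fold from there to P0 (-0.92, limma adjusted p 3.42e-09). The small step from P0 to P3 was 0.30 (limma adjusted p 0.000587), but -0.14 with median-of-ratios factors and -0.54 with equal library totals. Counts per gene do not separate the spliced forms.

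Ldha, the muscle-type lactate dehydrogenase subunit, rose until birth and fell after it. It was at 3328, 3736 and 3656 at E13.5, 10634, 9053 and 9682 at E16.5, 19896, 17163 and 16627 at P0, and 8756, 8352 and 8232 at P3. No stages overlapped, with E13.5 lowest and P0 highest. Ldha rose 2.74-fold to E16.5 (log2 fold change 1.45, SE 0.08, limma adjusted p 4.54e-11) and 1.83-fold more to P0 (0.87, limma adjusted p 9e-08), 2.32 in all on the log2 scale. From P0 to P3 it fell 2.11-fold (-1.08, limma adjusted p 2.88e-09). These 3 steps kept their direction and call under all 5 scalings. The difference of P3 from E16.5, at -0.21 (limma adjusted p 0.0294), was lost without E16.5 library 1 (-0.15, 0.132), P3 library 3 (-0.20, 0.0754) or P3 library 4 (-0.19, 0.0763).

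Within P0, 7 of the 10 enzymes (Hk1, Pfkl, Aldoa, Pgk1, Eno1, Pkm and Ldha) were highest in library 1 and lowest in library 4, and Pfkp was the reverse. Summed Sertoli cell markers in P0 libraries 1, 3 and 4 were 20758, 19647 and 10959, summed Leydig cell markers 6201, 3169 and 1133, and summed mast cell markers 3208, 2428 and 1505. Normalized totals of these libraries ran in the same order, at 2.49e+07, 2.37e+07 and 2.30e+07. As a share of reads, the 10 enzymes together took 0.650%, 0.622% and 0.634% in libraries 1, 3 and 4. How many of all genes had the order of the 7 was not counted. The part of these markers and of the scaling in the P0 values was not tested.

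Counted over the 10 genes, 8 changed between E13.5 and E16.5, 3 higher (Hk1, Hk2 and Ldha) and 5 lower (Pfkl, Pfkp, Aldoa, Pgk1 and Pkm). Of all 22384 genes tested 80.1% were called in that comparison, 45.5% higher and 34.6% lower. The median log2 fold change of the 10 was -0.46, beside 0.31 over all genes. From E16.5 to P0, 7 changed, 4 higher (Pfkl, Pfkp, Aldoa and Ldha) and 3 lower (Gpi1, Eno1 and Pkm), beside 61.0% called among all genes (27.6% higher, 33.4% lower), with medians of 0.20 and -0.01. From P0 to P3, 9 changed, 5 higher (Hk2, Gpi1, Aldoa, Eno1 and Pkm) and 4 lower (Pfkl, Pfkp, Pgk1 and Ldha), beside 76.5% (40.1% higher, 36.4% lower), with medians of 0.16 and 0.05. The number of members called was near the background in each. Libraries of the stages compared did not overlap for 8 members at E16.5 against E13.5 (80.2% of all genes), for 7 at P0 against E16.5 (69.5%), for 8 at P3 against P0 (81.0%), for 10 at P0 against E13.5 (88.1%), for 8 at P3 against E16.5 (71.6%) and for 10 at P3 against E13.5 (71.3%).

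The scaling moved these splits. With equal library totals they were 5 higher and 5 lower, 7 higher and 2 lower, and 2 higher and 6 lower for the consecutive comparisons. The median of all genes then moved from 0.31, -0.01 and 0.05 to 0.84, 0.68 and -0.86. Shares of all genes called higher and lower with equal totals were not counted, so these splits alone are no result about the 10. Relative to the median of all genes, the median of the 10 was -0.76 with the deposited scaling and -0.79 with equal totals at E16.5 against E13.5, 0.21 and 0.18 (P0 against E16.5), and 0.11 and 0.18 at P3 against P0. Called in the same direction under all 5 scalings were 3 higher and 5 lower at E16.5 against E13.5, 4 higher and 2 lower at P0 against E16.5 (Gpi1 dropped out), and 2 higher (Gpi1 and Eno1) and 4 lower at P3 against P0. The share of all genes called in this way was not counted.

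Between samples of the same genotype tag, all 10 genes differed at P0 from E13.5, 4 higher (Hk1, Hk2, Pfkp and Ldha) and 6 lower (of which Gpi1, Pfkl and Aldoa turned with equal totals), beside 86.1% of all genes called (45.7% higher, 40.5% lower), and the medians were -0.90 and 0.20. Eno1 was 4.24-fold lower (log2 fold change -2.08, limma adjusted p 5.26e-13) and Pkm 3.21-fold lower (-1.68, limma adjusted p 3.2e-13). At P3 against E16.5, 7 were called, 4 higher (Hk2, Gpi1, Pfkp and Aldoa) and 3 lower (Eno1, Pkm and Ldha), beside 69.5% of all genes (34.2% higher, 35.2% lower). The medians were 0.05 and -0.05. Across the tags, at P3 against E13.5, all 10 differed, 5 higher and 5 lower (of which Aldoa turned with equal totals), beside 70.4% (39.2% higher, 31.2% lower), with Pgk1 7.68-fold lower (log2 fold change -2.94, limma adjusted p 2.74e-13) and medians of 0.03 and 0.16. The F-test over the 4 stages called all 10, as it did 95.2% of all genes.

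**Figure D3:**
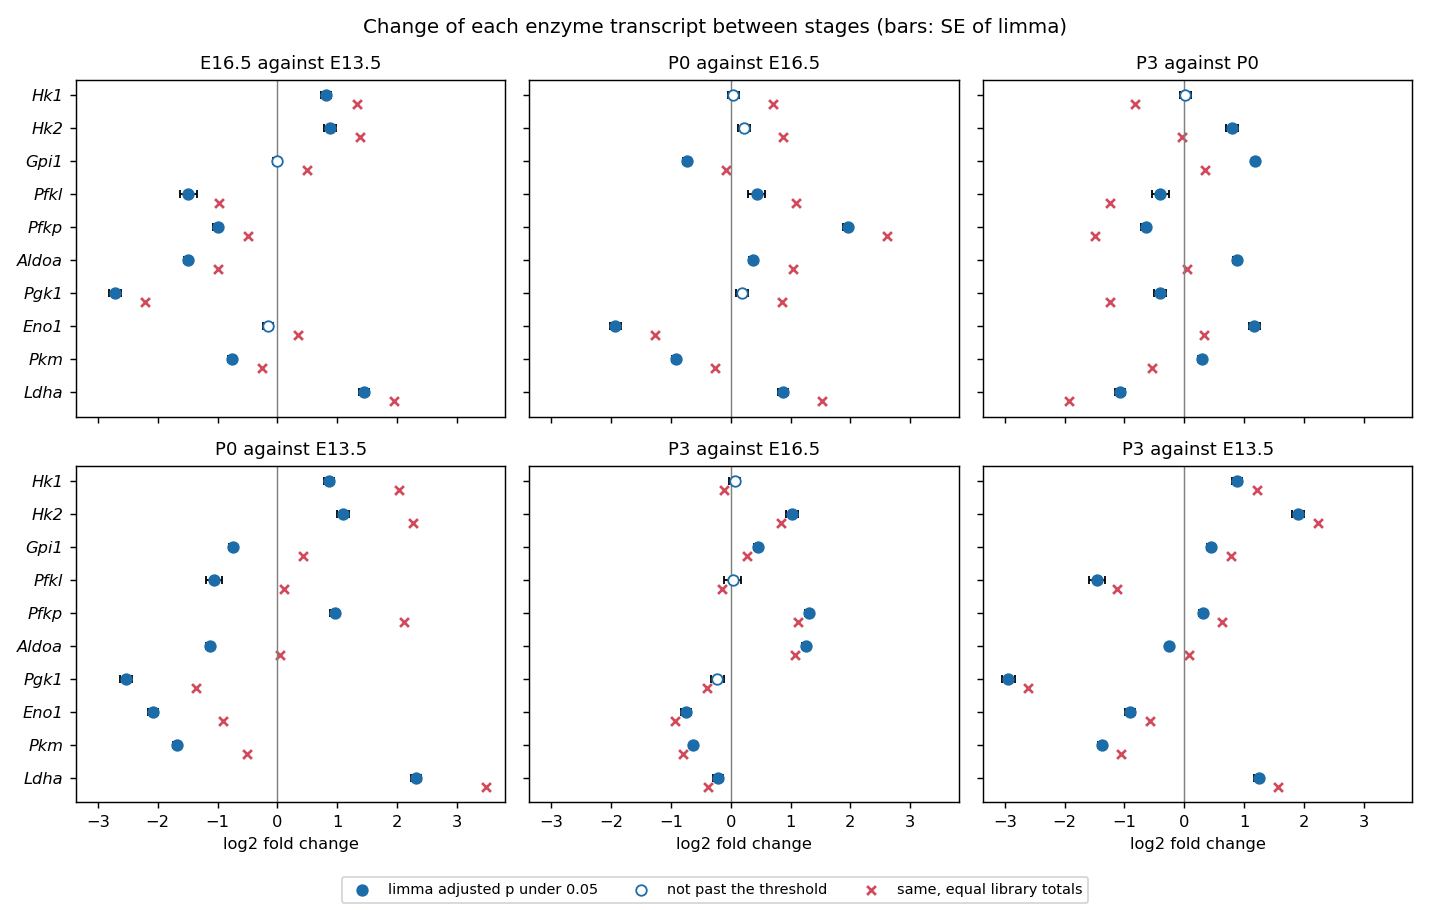
Log2 fold change of each enzyme (rows) in the 6 comparisons of stages (panels); circles with SE bars are limma's estimates, filled where the adjusted p was under 0.05, and red crosses give the same value with equal library totals. Pgk1 at E16.5 against E13.5 lies at -2.72 and Ldha at P0 against E13.5 at 2.32, and the crosses lie to the right of the circles wherever P0 is compared with an embryonic stage.

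The leading isoenzyme changed with stage for lactate dehydrogenase and phosphofructokinase, whereas Hk1, Aldoa, Eno1, Pgk1 and Pkm led at all 4 stages. Shares were taken within a library from counts per kb of principal transcript, so the scaling of libraries cancels. They were compared over the 4 stages by an exact permutation test over 15400 permutations of the stage labels, with Benjamini-Hochberg adjustment over 9 enzymes; the smallest p it can give is 6.49e-05. Ldha made up 3.55% ± 0.188 of lactate dehydrogenase transcripts at E13.5 (SD, n = 3), then 50.3% ± 3.97 (E16.5), 70.6% ± 2.13 (P0) and 44.3% ± 0.547 (P3), with an exact permutation adjusted p of 0.000195. Its partner Ldhb, the heart-type subunit, went from 96.3% to 37.9%, 23.3% and 52.9%, and Ldhc, the testis form, from 0.175% to 11.8%, 6.07% and 2.76%. Without the division by length, Ldha stood above Ldhb at P3 (51.8% against 45.7%), so the leading form at P3 depended on that division. Ldhb fell from 71577 to 5464 normalized counts between E13.5 and E16.5 (log2 fold change -3.72, SE 0.13, limma adjusted p 1.91e-13) while Ldha rose.

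Among phosphofructokinases, Pfkl held 46.5% ± 0.424 at E13.5 and 19.6% ± 2.84, 23.1% ± 4.69 and 26.2% ± 0.709 after it (SD, n = 3; exact permutation, adjusted p 0.00278). Pfkp held 23.8%, 14.0%, 47.3% and 45.7% (exact permutation over n = 12, adjusted p 0.000701). Of its words 17.1% also lie in Pitrm1 on the opposite strand, and the part of Pitrm1 reads in these shares was not tested. The muscle-type Pfkm, at 29.6%, 66.5%, 29.6% and 28.2%, was the leading form at E16.5 alone, and rose 1.91-fold into that stage (log2 fold change 0.94, limma adjusted p 1.36e-08) where Pfkl and Pfkp fell.

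Hk1 led the hexokinases throughout, with 73.2%, 62.8%, 56.2% and 56.1% (exact permutation, adjusted p 0.000974), and Hk2 held 26.0%, 23.2%, 23.4% and 40.2% (0.00435). Without the division by length, Hk2 passed Hk1 at P3 (49.4% against 48.1%). Hkdc1, a less studied member of the family, had no read at E13.5, made up 8.88% at E16.5 and 11.3% at P0, and was down to 0.609% at P3. Its level at E16.5 was at least 106-fold higher than that of E13.5, taking a floor of 3 reads per library for the stage at 0.

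Aldoa dominated the aldolases at 99.4%, 89.1%, 86.7% and 92.9% (exact permutation, adjusted p 0.000195), the remainder being mainly Aldoc, the brain-type form, which rose from 502 to 3127 normalized counts between E13.5 and E16.5. Eno1 made up 99.3%, 99.2%, 93.7% and 97.6% of enolases (exact permutation, adjusted p 0.000195), with Eno3, the muscle-type form, at 5.55% at P0. Pkm was over 99.9% of pyruvate kinase at every stage. Pgk1 held 96.0%, 98.4% and 91.4% of phosphoglycerate kinase at E16.5, P0 and P3, beside the testis form Pgk2, which had no read at E13.5.

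**Figure D4:**
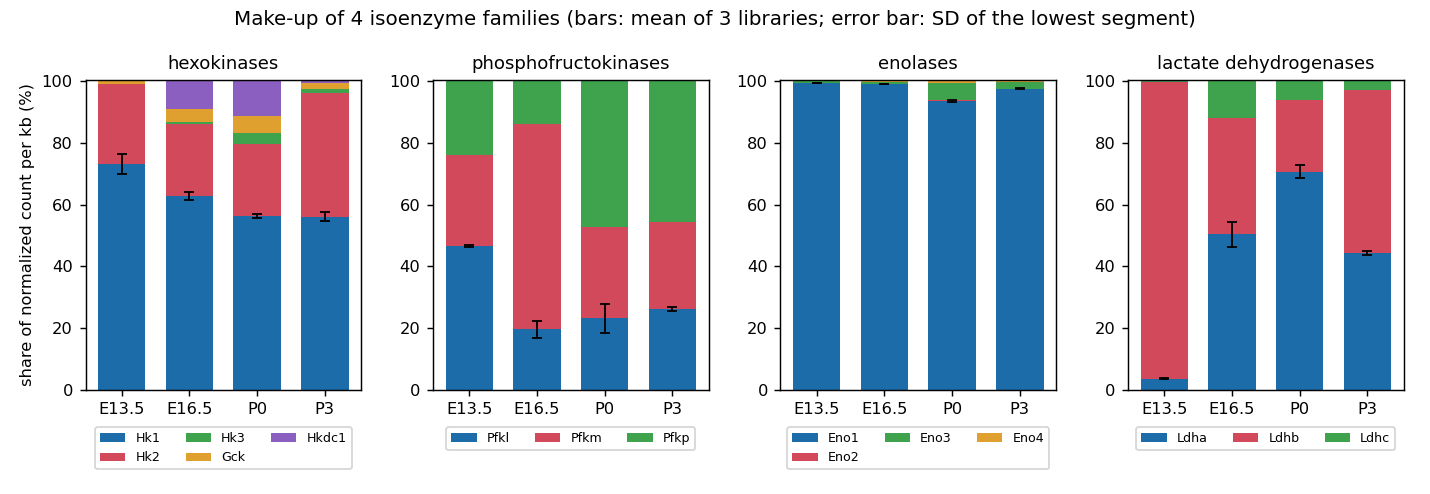
Mean share (y axis, percent of normalized counts per kb, 3 libraries) of each gene in 4 isoenzyme families at the 4 stages (x axis); error bars are SDs of the lowest segment. Ldha grows from 3.55% to 70.6% of lactate dehydrogenase between E13.5 and P0, and Pfkm fills 66.5% of phosphofructokinase at E16.5.

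The rest of the pathway and the related lists that follow are given by counts of called genes, each beside the shares over all genes. Those were 80.1% called (45.5% higher, 34.6% lower) from E13.5 to E16.5, 61.0% (27.6% and 33.4%) on to P0, and 76.5% (40.1% and 36.4%) on to P3. Of 18 other glycolysis enzyme genes, 16 passed the filter on low values. Between E13.5 and E16.5, 11 rose and 4 fell, with a median log2 fold change of 1.80 beside 0.31 for all genes. Of those that rose, Hk3, Hkdc1 and Pgk2 had at most 3 reads in any E13.5 library. Those that fell were Ldhb, Tpi1, Gapdh and Pgam2. Tpi1, the triose phosphate isomerase with no isoenzyme, went from 11294 to 1570 normalized counts (log2 fold change -2.86, SE 0.12, limma adjusted p 1.06e-12), beside -2.72 for Pgk1. From E16.5 to P0, 7 rose and 4 fell, and from P0 to P3, 5 rose and 10 fell. Pgam1, the main phosphoglycerate mutase, was at 18183, 21806, 9165 and 18153 normalized counts at E13.5, E16.5, P0 and P3. P0 was the lowest of these, but with equal library totals it stood 0.18 above E13.5 on the log2 scale (limma adjusted p 0.00342).

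Glucose and lactate transport genes gave 3 higher and 5 lower of 9 from E13.5 to E16.5, 2 and 2 from there to P0, and 3 and 3 to P3. Slc2a1, the common glucose transporter, was at 7996, 3393, 1625 and 5588 normalized counts, and Slc16a1, a lactate and pyruvate carrier, at 7565, 2920, 2521 and 10068. Slc16a1 rose from P0 to P3 by 2.002 on the log2 scale (limma adjusted p 8.52e-12), with 1.16 under equal totals. Slc2a3, the high-affinity transporter, was at 3426, 6204, 5429 and 3829.

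Regulators of glycolysis gave 5 higher and 9 lower of 14 from E13.5 to E16.5, 6 and 5 to P0, and 7 and 4 to P3. Among all genes 80.1%, 61.0% and 76.5% were called in these steps. Mycn, a transcription factor of the Myc family, had the deepest fall among them, from 22183 to 717 normalized counts (log2 fold change -4.98, SE 0.14, limma adjusted p 1.55e-14), and rose again from 1050 at P0 to 4803 at P3. Hif1a, the oxygen-regulated subunit of the hypoxia-inducible factor, was at 9368, 2794, 5100 and 4841, and Egln1, the prolyl hydroxylase that marks it for decay, at 2154, 455, 1267 and 3056. Pfkfb3 and Pfkfb4 encode enzymes that set fructose 2,6-bisphosphate, the activator of phosphofructokinase. Pfkfb3 fell 6.29-fold into E16.5 (log2 fold change -2.65, limma adjusted p 5.16e-11) and Pfkfb4 rose 4.53-fold (2.18, limma adjusted p 3.99e-10). Tigar, a phosphatase acting against that activator, was at 7687, 2246, 718 and 4016.

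Genes for pyruvate entry into mitochondria gave 5 higher and 8 lower of 13 from E13.5 to E16.5, 2 and 9 to P0, and 9 and 3 to P3. Pdk1, a kinase that turns pyruvate dehydrogenase off, was at 9763, 1346, 915 and 7297 normalized counts and rose 7.99-fold from P0 to P3 (log2 fold change 2.999, SE 0.10, limma adjusted p 1.98e-13). Pdp2, a phosphatase of the opposite action, was at 109, 1217, 772 and 424. TCA cycle genes gave 0 higher and 11 lower of 16 from E13.5 to E16.5, 1 and 11 to P0, and 13 and 2 to P3. Of all genes, 45.5%, 27.6% and 40.1% were called higher and 34.6%, 33.4% and 36.4% lower in these steps. Fh1, the fumarase, was at 14937, 3997, 2829 and 8241. The pentose phosphate pathway gave 0 and 4, 1 and 4, and 6 and 1 of 7, with Pgd, its NADPH-yielding dehydrogenase, at 7081, 2003, 2062 and 9067. Gluconeogenesis gave 6 and 0, 3 and 1, and 1 and 4 of 7. Its genes G6pc and Pck1 had at most 3 reads in any E13.5 library. In the same list Pcx, pyruvate carboxylase, was at 4582, 4211, 12546 and 5825. Fbp2, the muscle fructose bisphosphatase, was at 8.89, 82.3, 554 and 10.5.

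With equal totals the calls of several of these lists turned. Shares of all genes called higher and lower under that scaling were not counted. The median of all genes was then 0.84, 0.68 and -0.86 in the 3 consecutive comparisons. TCA cycle genes then gave 6 higher and 8 lower, 8 and 6, and 9 and 6 in the 3 consecutive comparisons, and genes for pyruvate entry 6 and 6, 7 and 2, and 5 and 8. The other glycolysis enzymes gave 12 and 4, 11 and 2, and 2 and 11, transport genes 3 and 3, 6 and 1, and 2 and 6, and regulators 5 and 7, 9 and 2, and 3 and 8. Gluconeogenesis gave 7 and 0, 5 and 1, and 0 and 6, and the pentose phosphate pathway 2 and 4, 3 and 1, and 3 and 1. Relative to all genes, the median of the TCA cycle list was -0.94, -0.54 and 0.98 with the deposited scaling and -0.96, -0.56 and 1.05 with equal totals.

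**Figure D5:**
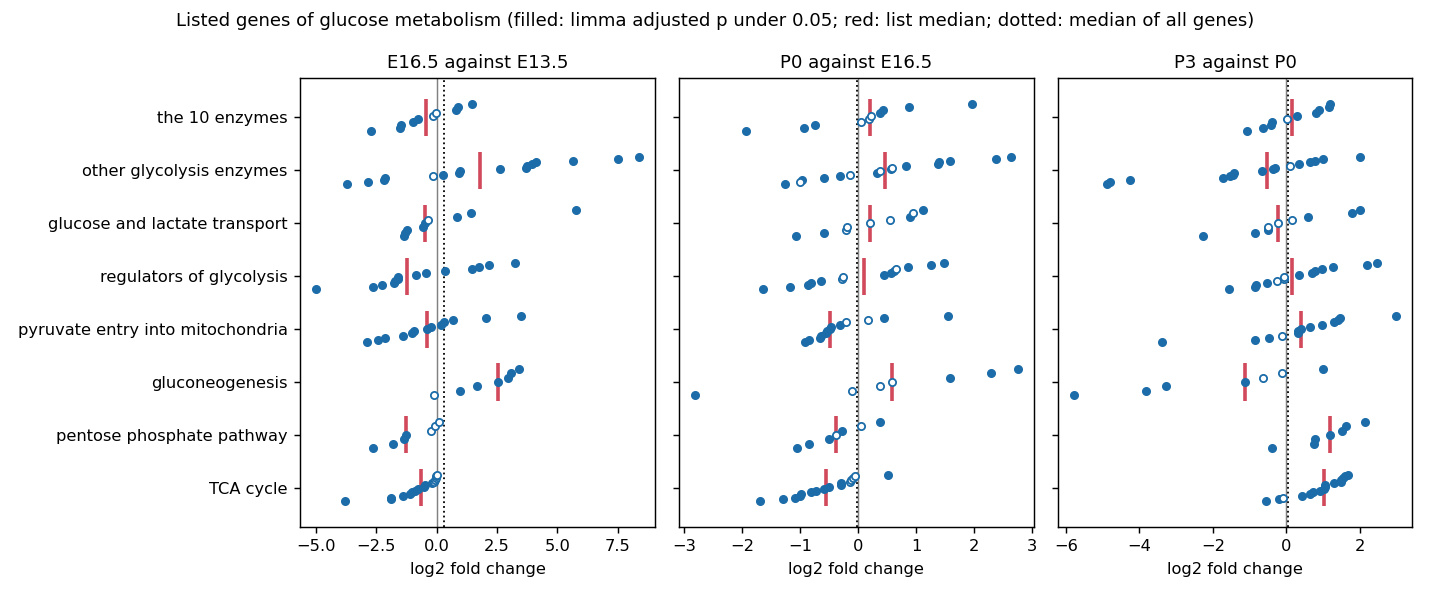
Log2 fold changes (x axis) of the tested genes of 8 lists (rows) in the 3 comparisons of consecutive stages (panels); each dot is a gene, filled where limma's adjusted p was under 0.05, red lines are list medians and dotted lines the median of all genes. The TCA cycle list has its median at -0.63 in the E16.5 panel and 1.03 in the P3 panel, while the 10 enzymes spread from -2.72 to 1.45 in the E16.5 panel.

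The promoters of the 10 genes were searched for short motifs in the 250 bases before each annotated start (RefSeq, GRCm38.p6), where all 10 genes matched with 17 windows. The core of the hypoxia response element, ACGTG read on either strand, occurred in 6 windows of 5 genes (Hk2, Aldoa, Pgk1, Pkm and Ldha), beside 16.6% of 32851 such windows over all genes. Aldoa windows at chr7:126799255-126799504 and chr7:126799179-126799428 overlap and hold the same site, so it was counted in both. The background is a share of windows, and no share of genes was counted. The E-box CACGTG, which contains that core on both strands, occurred in 1 window, of Ldha, beside 6.02% of all windows. The GC box GGGCGG on either strand occurred in 10 windows of 8 genes, beside 32.7% of all windows, with overlapping windows of Aldoa and of Eno1 among the 10. The 3 promoters that follow hold the core at least at 2 places and belong to genes with unlike profiles: Hk2 rose to P3, Pgk1 fell after E13.5, and Ldha peaked at P0. Capitals mark ACGTG or its reverse complement CACGT, and sequences run 5′ to 3′ on the gene's strand. Hk2 is at chr6:82774455-82774704 (minus strand), Pgk1 at chrX:106186850-106187099 (plus strand) and Ldha at chr7:46845554-46845803 (plus strand).
Hk2: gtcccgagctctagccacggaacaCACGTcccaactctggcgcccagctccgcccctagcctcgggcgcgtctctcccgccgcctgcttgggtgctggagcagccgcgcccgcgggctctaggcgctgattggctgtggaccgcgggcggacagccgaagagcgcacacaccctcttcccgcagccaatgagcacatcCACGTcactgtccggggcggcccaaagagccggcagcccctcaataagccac
Pgk1: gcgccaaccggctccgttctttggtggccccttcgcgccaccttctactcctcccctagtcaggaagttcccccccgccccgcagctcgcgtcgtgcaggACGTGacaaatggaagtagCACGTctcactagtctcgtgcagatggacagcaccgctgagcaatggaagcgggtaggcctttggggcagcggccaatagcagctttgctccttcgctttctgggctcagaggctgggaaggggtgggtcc
Ldha: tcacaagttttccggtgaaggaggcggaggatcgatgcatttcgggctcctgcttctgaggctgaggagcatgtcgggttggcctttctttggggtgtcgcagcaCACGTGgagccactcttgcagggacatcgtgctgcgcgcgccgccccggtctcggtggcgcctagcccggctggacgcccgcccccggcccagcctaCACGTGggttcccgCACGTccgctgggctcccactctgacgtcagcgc
A match of letters describes the sequence only, and no binding was measured here.

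Genes with the most similar profiles were found by Pearson correlation of log2(normalized count + 1) over the 12 libraries, with 12269 candidate genes of mean 100 or more. These values describe profiles across 4 stages, in which libraries of a stage move together and all genes share the size factors, so many genes correlate highly with any member. The closest were Inpp5a for Hk1 (r = 0.988), Fblim1 for Hk2 (0.991), Tubb4b for Gpi1 (0.995), Bcat2 for Pfkl (0.990), Bmi1 for Pfkp (0.980), Sntb2 for Aldoa (0.996), Rcbtb2 for Pgk1 (0.993), Eral1 for Eno1 (0.998), Fxr1 for Pkm (0.995) and Trpv2 for Ldha (0.993). Bmi1, a Polycomb group gene, was at 4872, 2112, 7933 and 5530 normalized counts, a low at E16.5 and a peak at P0 like those of Pfkp. Bcat2, a mitochondrial enzyme of branched-chain amino acid breakdown, was at 3559, 695, 961 and 724, high at E13.5 alone like Pfkl.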

How the data were processed

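The authors counted reads per gene and divided them by size factors (RLE, relative log expression), per the file headers, so the deposited signal is a normalized count. The submitters' processing notes name bcl2fastq 2.20, cutadapt 1.18, HISAT2 2.1.0, featureCounts 1.5.2 and DESeq2 1.26.0 and the build GRCm38 (mm10). Annotation release, strand setting and the treatment of reads matching several places are not given in the sources used here. Dividing by a library's smallest value gave whole numbers for 100% of values (tolerance 0.001), so reads were recovered by division, 40946616 to 51533747 per library. A total of 0 columns had no stage; columns are numbered 1, 3 and 4, unlike the replicates in the titles, so each was assigned to its stage only.

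The log2(normalized count + 1) values of genes with at least 10 in at least 3 libraries (22384 genes) entered limma 3.58.1 under R 4.3.3 (lmFit, eBayes with trend), fitted over all 12 libraries, with 8 residual degrees of freedom and Benjamini-Hochberg adjusted p under 0.05 over all genes tested. Fold changes on this scale understate changes of low genes. Other scalings (equal library totals and factors by TMM, median of ratios or poscounts), other pseudocounts (0.1 and 10), other filters (none, or mean 100), a fit of the 2 stages compared, a log2 fold change of at least 1, edgeR 4.0.16 and DESeq2 1.42.0 on the recovered reads, adding copies, and leaving out each library were the alternatives. Chosen after seeing the data were a block on the column number, adding copies without overlapping genes, shares without division by length, and shares without each library. The method was tested on simulated data. Symbols matched 55141 of 55487 identifiers. The floor of 3 reads covers counting error only, and reads carry no molecular identifiers. SDs give the spread between the libraries of a stage, and limma's SEs rest on the spread within stages.

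Members, lists and tests were chosen with earlier results of these data known. All 10 members are named. Of other lists, isoenzymes of members are named and, for each step between consecutive stages, genes among the 3 that rose most or the 3 that fell most. Sequences come from GENCODE M21 transcripts (GRCm38) and RefSeq promoters (GRCm38.p6). Python 3.11.15, pandas 2.3.3 and Biopython 1.88 were used. Values of 1 gene of the other lists are not reported here.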

Additional observations from a re-analysis of the deposited data

How the results depend on the processing

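The number of members called kept within 1.5 times the reported one under every scaling, pseudocount, filter, test and added copy. Requiring also a log2 fold change of at least 1 left 4 members at E16.5 against E13.5, 2 at P0 against E16.5, 3 at P3 against P0, 3 at P3 against E16.5 and 5 at P3 against E13.5. At P0 against E13.5 it left 2 higher and 5 lower. The share of all genes passing that rule was not counted. Leaving out each library in turn gave 8 to 9, 6 to 8 and 8 to 9 members for the consecutive comparisons, 6 to 8 for P3 against E16.5, and 10 for both others. Shares of all genes called in these fits are not given beside them, so these counts alone are no result about the 10. The scaling turned directions. With median-of-ratios factors the log2 fold change of Gpi1 at E16.5 against E13.5 was 0.21, and at P3 against P0 Hk1 was at -0.42 and Pkm at -0.14. With equal library totals Gpi1 was at 0.50 and Eno1 at 0.35 at E16.5 against E13.5. At P3 against P0 Hk1 was then at -0.82, Hk2 at -0.0366 and Pkm at -0.54, and at P0 against E13.5 Gpi1 was at 0.43, Pfkl at 0.11 and Aldoa at 0.0406. Aldoa was at 0.0784 at P3 against E13.5. The cause was not tested beyond the factors themselves: those of equal totals averaged lower at P0 and higher at E13.5 than the deposited ones. Adding rows that share words, overlapping genes included, put Pfkp at 0.0533 at P3 against P0, -0.98 at P0 against E13.5 and -0.92 at P3 against E13.5, because Pitrm1 was then counted as Pfkp. Without overlapping genes no call changed. On recovered reads edgeR called 17834, 14378 and 17364 genes in the consecutive comparisons, and it called the same numbers of members in each direction as limma. Calls lost without a filter were Pfkl at P0 against E16.5 (limma adjusted p 0.0954), Pfkl at P3 against P0 (0.0992) and Ldha at P3 against E16.5 (0.101).

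The columns were not matched to the replicate numbers of the titles, so the column numbers 1, 3 and 4 served as a replicate block, a choice made after seeing the data. With this block 8, 7 and 9 members were called in the consecutive comparisons, 10 at P0 against E13.5, 7 at P3 against E16.5 and 10 at P3 against E13.5, in the same numbers as without it, and no member's call changed. Over all genes 17911, 13529 and 17028 were called in the consecutive comparisons. Deviations of same-numbered libraries from their stage means correlated at -0.0356 to 0.0423 over 18 pairs, and 3 of 12 libraries were closest to one of their own number. What the numbers stand for is not given, and whether same-numbered libraries share an origin was not tested. The scarcest member, Hk2, had at least 602 reads in every library. Copies not in the annotation were not searched for, since no genome was used here.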
